A study of Mus musculus with 11 samples.

Results

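The pineal gland lies just behind the habenula, and in 5 of 11 libraries made from dissected lateral habenula tissue the RNA of Tph1, the tryptophan hydroxylase that starts serotonin and melatonin synthesis in pinealocytes, was at 2 CPM (counts per 1000000 counts of the library) or more. In the other 6 libraries Tph1 was below 1 CPM. The mice were BALB/c, 3 months old and of both sexes. Collagen antibody-induced arthritis (CAIA) was produced with a cocktail of 5 monoclonal antibody clones against type II collagen at 50 mg/kg, with lipopolysaccharide (LPS) at 1 mg/kg given 3 days later, and controls received vehicle, so antibody and LPS cannot be told apart. The Tph1-positive libraries were male control replicate 1, female control replicate 3, male CAIA replicate 3 and female CAIA replicates 1 and 2, which makes 2 of 5 controls and 3 of 6 CAIA libraries. The Tph1-negative ones were male control replicate 3, female control replicates 1 and 2, male CAIA replicates 1 and 2 and female CAIA replicate 3. These groups were set by a measured level and are not groups of the study, and treatment was a term in every fit over all 11 libraries unless stated.

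Tph1 chose the libraries, so its values are only a description. It was at 4.08 CPM in male control replicate 1, 4.54 in female control replicate 3, 19.4 in male CAIA replicate 3, 2.73 in female CAIA replicate 1 and 16.0 in female CAIA replicate 2. The member just inside the limit was thus female CAIA replicate 1, and the library just outside it was female CAIA replicate 3 at 0.372 CPM. The other 5 negative libraries ranged from 0 to 0.194 CPM. Both of the highest levels belonged to CAIA libraries.

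Pinealocytes are neuroendocrine cells that share a developmental and transcriptional program with retinal photoreceptors. They make melatonin from tryptophan through TPH1, the decarboxylase DDC, the acetyltransferase AANAT and the methyltransferase ASMT, and they carry many proteins of the visual cascade, such as arrestin (Sag) and the retinoid-binding protein IRBP (Rbp3). The homeodomain factors OTX2, CRX, LHX4 and BSX take part in forming and maintaining these cells. Neighbours of the gland include the subcommissural organ, ependyma, choroid plexus, meninges, habenula and thalamus.

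CRX and OTX2 bind DNA at a core written TAATCC, so the promoters of the 3 marker genes given with Tph1, and of Bsx, the gene that passed the test between the library groups, are printed to show where that core lies. They come from RefSeq on GRCm38.p6 and run from 250 bases before to 50 bases after the annotated start on the strand of the gene. Rbp3 is at chr14:33953753-33954052 (plus strand), Sag at chr1:87803430-87803729 (plus), Crx at chr7:15879906-15880205 (minus) and Bsx at chr9:40873877-40874176 (plus). Capitals mark GGATTA, which is TAATCC read on the opposite strand.
Rbp3: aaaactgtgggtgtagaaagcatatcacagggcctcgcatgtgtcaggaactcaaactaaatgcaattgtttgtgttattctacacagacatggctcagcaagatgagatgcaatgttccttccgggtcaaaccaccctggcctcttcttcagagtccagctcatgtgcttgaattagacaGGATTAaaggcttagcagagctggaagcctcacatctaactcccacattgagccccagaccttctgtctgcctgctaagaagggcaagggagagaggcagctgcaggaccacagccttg
Sag: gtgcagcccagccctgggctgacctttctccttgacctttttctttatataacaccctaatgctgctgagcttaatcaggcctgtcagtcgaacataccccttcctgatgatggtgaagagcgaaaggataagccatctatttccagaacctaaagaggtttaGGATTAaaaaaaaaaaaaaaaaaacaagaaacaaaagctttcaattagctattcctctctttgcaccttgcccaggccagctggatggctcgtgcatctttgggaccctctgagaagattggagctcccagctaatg
Crx: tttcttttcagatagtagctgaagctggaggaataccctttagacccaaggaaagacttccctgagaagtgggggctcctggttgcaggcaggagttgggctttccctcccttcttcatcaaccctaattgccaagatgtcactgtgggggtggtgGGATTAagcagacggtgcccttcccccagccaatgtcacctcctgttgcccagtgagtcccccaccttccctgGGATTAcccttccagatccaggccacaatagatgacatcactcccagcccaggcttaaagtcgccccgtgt
Bsx: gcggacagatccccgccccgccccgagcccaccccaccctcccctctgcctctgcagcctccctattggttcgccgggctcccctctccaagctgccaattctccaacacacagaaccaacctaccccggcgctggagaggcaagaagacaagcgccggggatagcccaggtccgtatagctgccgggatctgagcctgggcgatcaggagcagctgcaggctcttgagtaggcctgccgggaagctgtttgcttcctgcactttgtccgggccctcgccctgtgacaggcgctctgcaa
The core occurred once before the start of Rbp3 (offset -69), once before that of Sag (-87) and at 2 places before that of Crx (-94 and -21), where the offset counts bases from the annotated start to the first capital, negative before it. The Bsx window held no TAATCC on either strand. Over all 32851 RefSeq mouse promoters of the same length, 7.06% held TAATCC on either strand. A match is a string of letters in this window and says nothing about binding.

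Total counts per library ranged from 25317306 to 29565006, and 19618 of 54532 genes had enough counts to be tested after Tph1 was taken out. A gene near 0 CPM in the Tph1-negative libraries could pass this count filter only by being higher in the positive ones. That holds for Bsx, Crx, Lhx4, Neurod4, Cplx4, Tulp1, Prph2, Asmt, Lrit1 and Cabp5, among others. Their direction between the groups was thus tied to the filter. The habenula lists were present in both groups of libraries, with summed lateral habenula markers at 1509 to 1659 CPM in Tph1-positive and 1513 to 1731 in Tph1-negative libraries, and medial habenula markers at 1569 to 2023 and 1413 to 1914 CPM. The labels do not state whether libraries are from separate mice. P-values therefore cover only how far these samples vary, which may be technical variation. In bulk tissue, fewer cells of a type and less RNA per cell cannot be told apart. Levels are CPM of the column sum and are not per length, so they are compared between libraries within a gene and not between genes.

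The other pineal markers, Rbp3, Sag and Crx, were each higher in all 5 libraries than in any of the 6, as were 0.637% of all genes tested. None of them passed between the groups in edgeR, with an adjusted p of 0.0666 for Rbp3, 0.432 for Sag (log2 fold change 2.97 ± 0.64) and 0.115 for Crx. DESeq2 called all 3 higher between the groups. Rbp3 (chromosome 14, 33954003 to 33964216, GRCm38) was at 5.85 CPM in male control replicate 1, 3.80 in female control replicate 3, 20.6 in male CAIA replicate 3, 3.996 in female CAIA replicate 1 and 21.3 in female CAIA replicate 2, against 0.152 to 0.676 (median 0.368) in the Tph1-negative libraries. Its groups did not overlap, and its 2 highest libraries were the 2 with the most Tph1. Sag (chromosome 1, 87803680 to 87845158) was at 2.45, 1.41, 10.4, 1.23 and 8.82 CPM in the same order of libraries and at 0.233 to 0.799 (median 0.512) in the negative ones. Crx (chromosome 7, 15865947 to 15879968), a photoreceptor and pineal transcription factor, was at 0.830, 0.810, 4.58, 0.911 and 4.67 CPM and had 0 counts in all 6 negative libraries. Against a floor of 3 counts over the 6 negative libraries, the pooled counts of Crx over the positive ones were at least 126-fold higher, scaled by depth. Of these 330 counts, 126 came from male CAIA replicate 3 and 133 from female CAIA replicate 2. The bound covers counting error only, and Crx passed the count filter through the positive libraries.

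**Figure D1:**
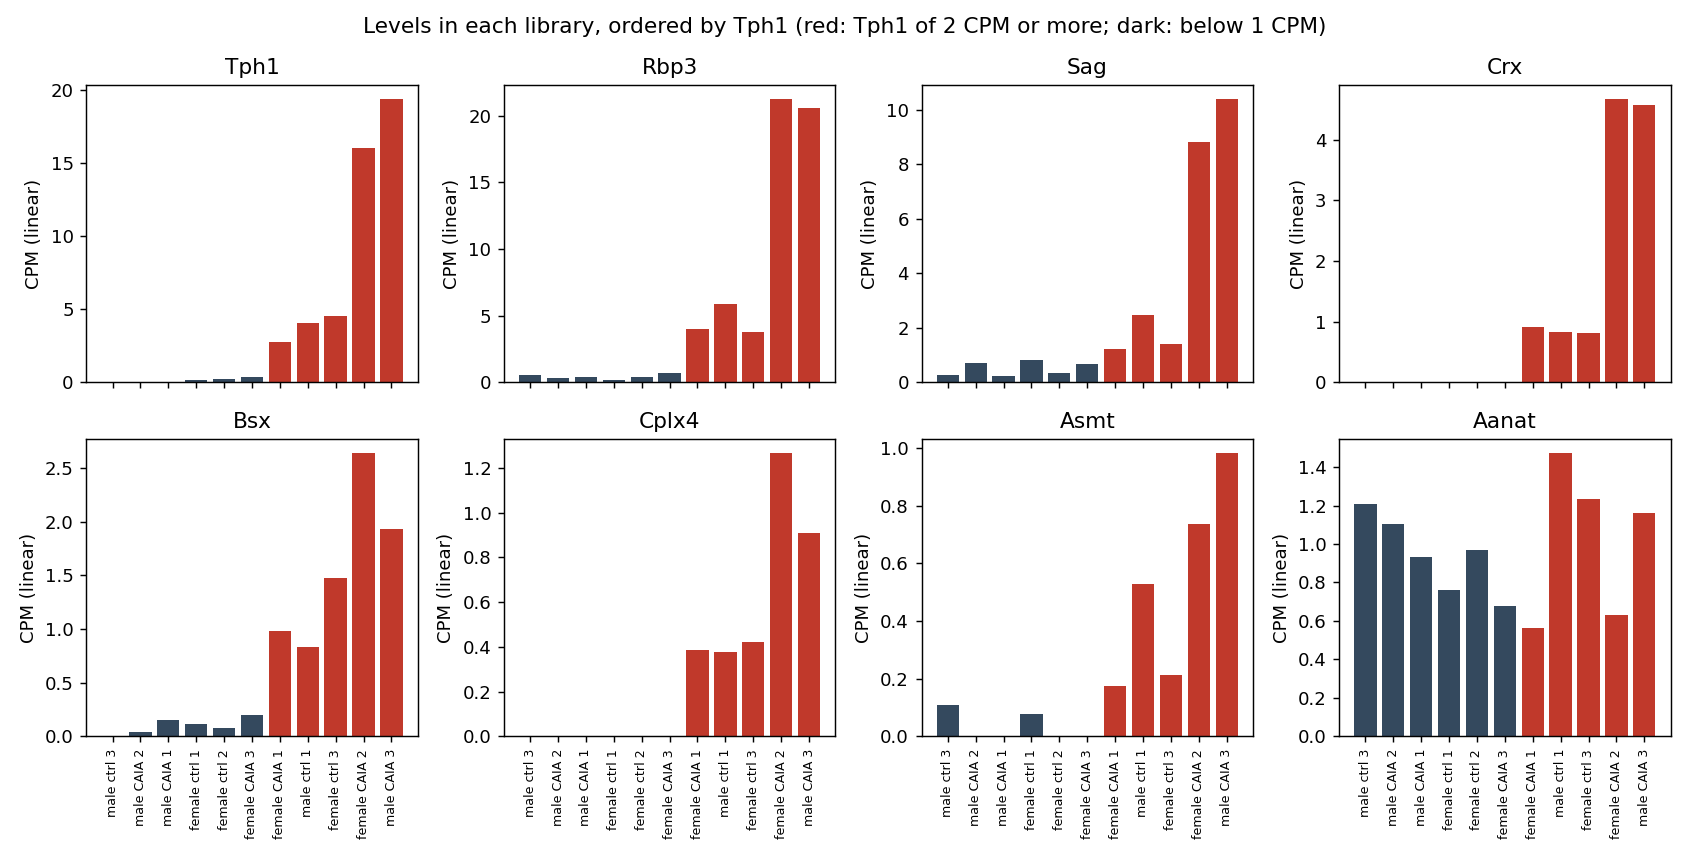
Bars give the level of 8 genes (CPM, linear axes starting at 0) in each of the 11 libraries, ordered by Tph1, with Tph1-positive libraries in red and Tph1-negative ones in dark blue. Rbp3, Sag, Crx, Bsx, Cplx4 and Asmt are higher in each red bar than in any dark one, while Aanat runs from 0.561 to 1.47 CPM with both colours mixed.

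Between the Tph1-positive and Tph1-negative libraries, edgeR's quasi-likelihood test with Benjamini-Hochberg adjustment put 1 gene higher at a threshold of 0.05, which is 0.0051% of those tested, and 0 (0%) were lower. At an unadjusted p under 0.05, 760 genes were higher (3.87%) and 522 lower (2.66%) in edgeR. DESeq2 gave 40 higher and 6 lower, and limma-voom 1 and 0. The gene that passed in edgeR was Bsx (chromosome 9, 40874127 to 40880057), which encodes a brain-specific homeobox factor of the pineal and hypothalamus. It was at 0.830 CPM in male control replicate 1, 1.48 in female control replicate 3, 1.93 in male CAIA replicate 3, 0.981 in female CAIA replicate 1 and 2.64 in female CAIA replicate 2, against 0 to 0.203 (median 0.0958) in the negative libraries. The groups did not overlap, and the log2 fold change was 3.84 ± 0.44 (SE), with an adjusted p of 0.00475 in edgeR. Bsx passed the count filter through the positive libraries, so its direction was not free. Bsx had an adjusted p of 0.0920 in limma-voom, where Cplx4 was the gene that passed, and of 0.0993 in edgeR without the 2 libraries of highest Tph1.

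The other 9 of the 10 genes with the lowest p were Cplx4, Lhx4, Neurod4, Rbp3, Aipl1, Crx, Prph2, Tulp1 and Ctxn3, and the smallest adjusted p among them was 0.0568. They did not pass in edgeR between the groups, and all 9 passed in DESeq2. Without female CAIA replicate 1, the positive library of lowest Tph1, 12 genes passed in edgeR, among them Rbp3, Crx, Tulp1, Neurod4, Lhx4 and Cplx4. All 10 had no overlap between the groups, as had 125 genes (0.637% of those tested) that were higher in every positive library than in any negative one. In the opposite direction 16 genes (0.0816%) were lower in every positive library.

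The positive libraries differed among themselves in Tph1, from 2.73 to 19.4 CPM, so the level was also fitted as a continuous term, log2(Tph1 CPM + 0.5), with treatment. In that fit 35 genes rose with the Tph1 level at an adjusted p of 0.05 in edgeR (0.178% of those tested), and 0 (0%) fell. At an unadjusted p under 0.05, 910 were higher (4.64%) and 652 lower (3.32%) with more Tph1 in that fit, and DESeq2 called 83 up and 27 down. Of the 35, 23 were also higher in every positive library than in any negative one. The slope was steepest relative to its error for Rbp3, at 1.14 ± 0.06 log2 units per doubling of Tph1 + 0.5 CPM (SE, adjusted p = 1.88e-07 in edgeR). Leaving out male CAIA replicate 3 or female CAIA replicate 2 left 12 genes each, and leaving out both left 6, of which 4 (Rbp3, Crx, Cplx4 and Bsx) were among the 35 and the others were the haemoglobin genes Hbb-bs and Hba-a1. Without male CAIA replicates 1 or 2 the counts were 15 and 18, and without male control replicate 1 it was 53.

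**Figure D2:**
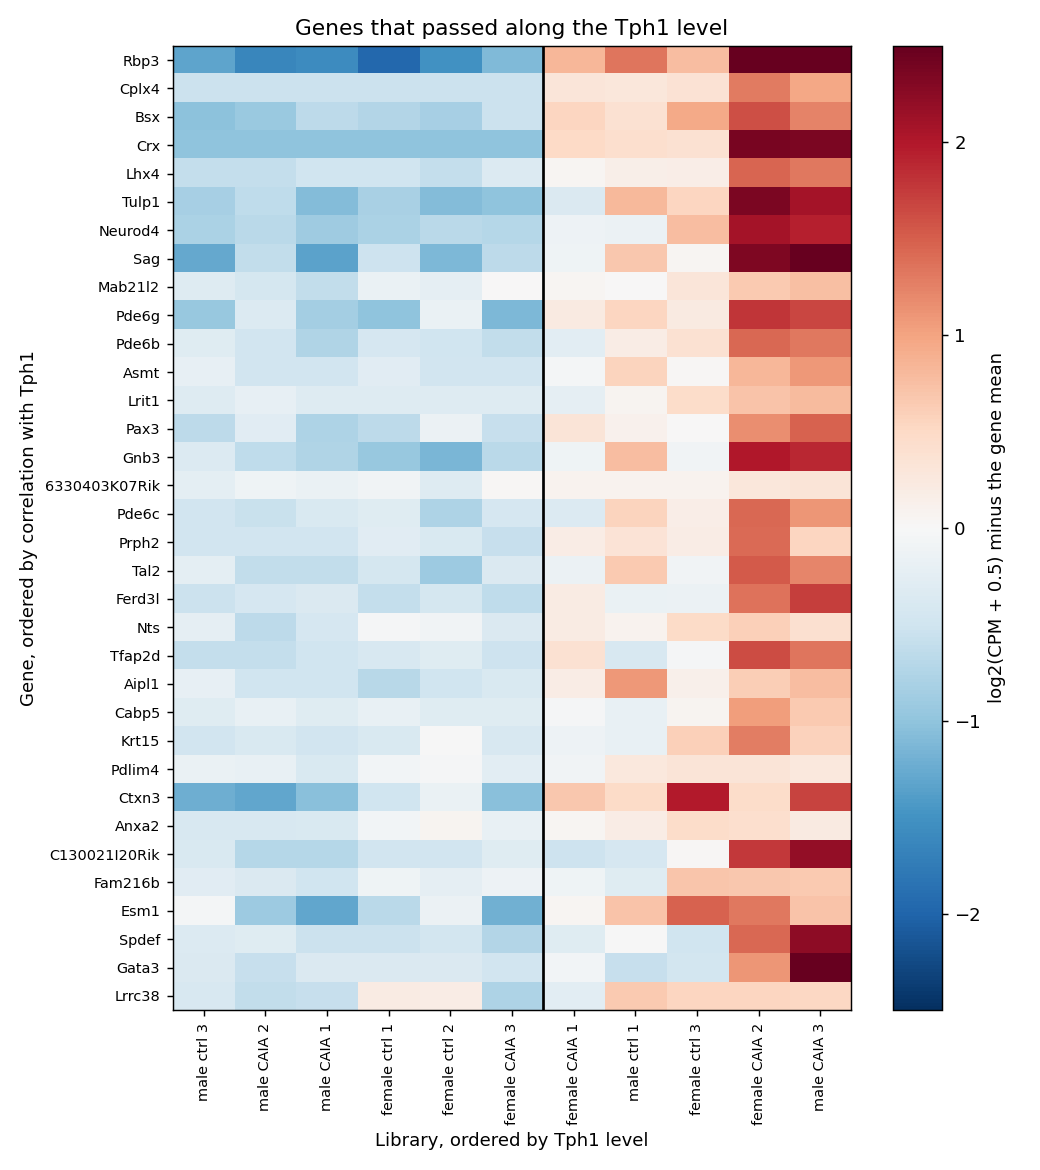
Rows are 34 of the 35 genes that passed along the Tph1 level, ordered by their correlation with Tph1, columns are the libraries in order of Tph1, and colour is log2(CPM + 0.5) minus the mean of the gene, limited to the range of the bar. The line marks the split, and the 2 rightmost libraries are red in most rows, whereas the 3 positive libraries next to the line are pale for Gata3, Spdef and C130021I20Rik.

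Of the melatonin genes tested, 1 rose with the Tph1 level, beside 0.178% of all genes. This was Asmt (chromosome X, 170672644 to 170678054), which makes the last step. It was at 0.528 CPM in male control replicate 1, 0.211 in female control replicate 3, 0.982 in male CAIA replicate 3, 0.175 in female CAIA replicate 1 and 0.738 in female CAIA replicate 2, and at 0 to 0.110 (median 0) in the negative libraries. These are 73 counts in all against 5, and Asmt passed the count filter through the positive libraries, so its direction was not free. Its slope was 1.04 ± 0.16 (adjusted p = 0.012 in edgeR), and between the groups its log2 fold change was 3.83 ± 0.79 with an adjusted p of 0.18. Of the 12 members tested besides Tph1, 11 were on the positive side, and the median was 0.10 on the log2 scale against 0.0047 over all genes.

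The other enzymes of that path did not pass in edgeR. Aanat, the penultimate step, whose RNA is known to follow the day and night in the pineal, was at 1.47, 1.23, 1.16, 0.561 and 0.633 CPM in male control replicate 1, female control replicate 3, male CAIA replicate 3 and female CAIA replicates 1 and 2, and at 0.676 to 1.21 in the negative libraries, so the groups overlapped. Its log2 fold change was 0.09 ± 0.26 (adjusted p = 0.972 in edgeR). The hour of dissection is not given in the sources used here. Ddc was at 0.20 ± 0.11 (adjusted p = 0.762), with 21.0 to 26.7 CPM against 16.8 to 25.8. Gch1, which makes the hydroxylase cofactor, was at 0.34 ± 0.28 (adjusted p = 0.852), with its 2 highest levels, 3.24 and 3.37 CPM, in the 2 libraries of highest Tph1. Tph2, the hydroxylase of brain serotonin neurons, was at 0.27 ± 0.50 (adjusted p = 0.95) and at or below 0.545 CPM in every library.

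Of the phototransduction list, 27 of 37 genes were tested, and 7 of them rose with the Tph1 level in edgeR (Rbp3, Sag, Gnb3, Pde6b, Pde6g, Pde6c and Aipl1), against 0.178% of all genes. Of the 7, Pde6b, Pde6c and Aipl1 passed the count filter through the positive libraries, so their direction was not free. Between the groups none of the 27 passed in edgeR, while 11 were higher and 2 lower at an unadjusted p under 0.05 (3.87% and 2.66% of all genes), and 7 were higher in DESeq2. The list median was 0.24 on the log2 scale. Among the 7 were 3 subunits of the cyclic GMP phosphodiesterase of rods and cones. Pde6g, the inhibitory rod subunit, was at 1.51, 1.13, 3.93, 1.12 and 4.32 CPM in male control replicate 1, female control replicate 3, male CAIA replicate 3 and female CAIA replicates 1 and 2, and at 0.135 to 0.735 (median 0.246) in the negative libraries. It had a slope of 0.69 ± 0.09 (adjusted p = 0.00231 in edgeR). Sag had a slope of 0.82 ± 0.08 (adjusted p = 0.000137 in edgeR).

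Pde6b, the catalytic rod subunit, had a slope of 0.71 ± 0.08 (adjusted p = 0.00107 in edgeR), with 0.315 to 2.14 CPM against 0.0776 to 0.294. Pde6c, the catalytic cone subunit, had 0.78 ± 0.12 (adjusted p = 0.00776), and its groups overlapped by a narrow margin, with a lowest positive level of 0.175 CPM and a highest negative one of 0.190. Aipl1, a chaperone of this enzyme, had 0.63 ± 0.12 (adjusted p = 0.0403), and its highest level, 1.36 CPM, was in male control replicate 1 rather than in the libraries of highest Tph1. Gnb3, the cone transducin beta subunit, was at 2.03 to 10.4 CPM in the positive and 0.735 to 1.65 in the negative libraries, with a slope of 0.58 ± 0.07 (adjusted p = 0.00107).

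Gnat1, the rod transducin alpha subunit, had 17 counts over the positive and 17 over the negative libraries and was too low to be tested. Also untested for low counts were Rcvrn, Pdc, Gngt1, Pde6h, Cnga1, Cnga3, Guca1a, Guca1b and Opn1sw. Of these Pdc, Gngt1 and Cnga1 had 0 counts in all negative libraries.

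Among genes of photoreceptor structure, 19 of 24 were tested, all 19 had a positive fold change (median 0.23), and 3 rose with the Tph1 level in edgeR (0.178% of all genes did): Tulp1, Prph2 and Cplx4. These 3 passed the count filter through the positive libraries, so their direction was not free. Between the groups none of the 19 passed in edgeR, 8 were higher and 0 lower at an unadjusted p under 0.05 (3.87% and 2.66% of all genes), and 3 were higher in DESeq2. Cplx4, a complexin of retinal ribbon synapses, was at 0.377 CPM in male control replicate 1, 0.422 in female control replicate 3, 0.909 in male CAIA replicate 3, 0.386 in female CAIA replicate 1 and 1.27 in female CAIA replicate 2, and had 0 counts in the 6 negative libraries. With counts pooled by group and scaled by depth, it was at least 36.0-fold higher against 3 counts over the 6 negative libraries. Its slope was 1.25 ± 0.17 (adjusted p = 0.00439 in edgeR).

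Tulp1, a tubby-like protein of photoreceptor transport, was at 1.51, 1.16, 4.36, 0.386 and 5.38 CPM in that order and at 0.0387 to 0.237 in the negative libraries. Its slope was 1.13 ± 0.10 (adjusted p = 2.64e-05 in edgeR). Prph2, a tetraspanin of outer segment discs, had a slope of 0.88 ± 0.14 (adjusted p = 0.0103), with 0.351 to 1.51 CPM against 0 to 0.114. Both genes had no overlap between the groups.

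The retinal genes outside these lists that rose with the Tph1 level included Lrit1, a leucine-rich repeat protein of photoreceptor synapses, with a slope of 1.27 ± 0.19 (adjusted p = 0.00776 in edgeR). It rested on 46 counts over the positive and 1 over the negative libraries, which scaled by depth is a ratio of 52.8 (95% interval from counting 9.02 to 2131). Cabp5, a calcium-binding protein of retinal bipolar cells, had 0.99 ± 0.18 (adjusted p = 0.0348), from 43 counts against 2, or a ratio of 24.7 (interval 6.43 to 210.3). Counting intervals cover counting error only, since reads are not independent molecules.

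Of 25 transcription factors of the pineal and photoreceptors, 20 were tested. Bsx passed between the groups in edgeR (0.0051% of all genes did), and Crx, Bsx and Lhx4 rose with the Tph1 level (0.178%). Crx, Bsx and Lhx4 passed the count filter through the positive libraries, so their direction was not free. At an unadjusted p under 0.05, 5 were higher and 1 lower between the groups (3.87% and 2.66% of all genes), with a list median of 0.23. Lhx4, a LIM homeobox factor, was at 0.340 CPM in male control replicate 1, 0.352 in female control replicate 3, 1.38 in male CAIA replicate 3, 0.280 in female CAIA replicate 1 and 1.58 in female CAIA replicate 2, and at 0 to 0.101 in the negative libraries. Its slope was 1.07 ± 0.12 (adjusted p = 0.000818 in edgeR), and that of Crx was 1.48 ± 0.14 (adjusted p = 9.37e-05). Bsx had a slope of 0.93 ± 0.11 (adjusted p = 0.00107).

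Neurod4, a basic helix-loop-helix factor of retina and pineal that is not on the list, was at 0.340, 1.09, 3.05, 0.351 and 3.41 CPM in the same order and at 0 to 0.0790 in the negative libraries, with a slope of 1.23 ± 0.10 (adjusted p = 2.26e-05 in edgeR). Its groups did not overlap. Isl2, a LIM homeobox factor, was at 0.113, 0.106, 0.618, 0.0701 and 0.703 CPM in that order and at 0 to 0.0790 in the negative libraries (log2 fold change 2.71 ± 0.79, adjusted p = 0.575 in edgeR). Rax, a retinal homeobox factor, was at 0.0701 to 0.545 against 0.0338 to 0.158 CPM (1.28 ± 0.63, adjusted p = 0.762). Isl2, Rax and Otx2 each overlap an annotated gene on the opposite strand. The levels of other factors on the list overlapped between the groups: Otx2 was at 22.5 to 45.3 CPM against 17.9 to 33.3 (log2 fold change 0.20 ± 0.11, adjusted p = 0.786 in edgeR), Lhx9 at 148 to 176 against 126 to 177 CPM, and Neurod1 at 33.6 to 52.1 against 28.4 to 43.8 CPM.

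Several genes with no place on the pineal lists also rose with the Tph1 level, and those named in this paragraph and the next, other than Ctxn3, Pax3, Mab21l2 and 6330403K07Rik, were chosen after their values were seen. Ctxn3, a cortexin, was at 5.89 CPM in male control replicate 1, 17.7 in female control replicate 3, 14.3 in male CAIA replicate 3, 6.91 in female CAIA replicate 1 and 5.87 in female CAIA replicate 2, against 1.38 to 3.60 in the negative libraries. Its highest level was not in a library of highest Tph1, and its slope was 0.59 ± 0.09 (adjusted p = 0.0489 in edgeR). Esm1, an endothelial secreted proteoglycan, was at 0.771 to 2.92 CPM against 0 to 0.697 (slope 0.80 ± 0.11, adjusted p = 0.00693). Smaller slopes were found for Nts, the neurotensin precursor, at 0.21 ± 0.04 (3.51 to 5.20 CPM against 1.896 to 3.16, adjusted p = 0.0262), and Anxa2, a phospholipid-binding annexin, at 0.14 ± 0.02 (adjusted p = 0.0238), whose levels of 16.8 to 22.7 CPM overlapped with 12.2 to 17.1. Ctxn3, Esm1 and Anxa2 each overlap an annotated gene on the opposite strand, and the strand setting of the counting is not given in the sources used here.

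Another set was high mainly in the 2 libraries of highest Tph1. Gata3, a zinc finger factor, was at 3.64 CPM in male CAIA replicate 3 and 1.09 in female CAIA replicate 2, at 0, 0.0352 and 0.210 in male control replicate 1, female control replicate 3 and female CAIA replicate 1, and at 0 to 0.0776 in the negative libraries (slope 0.98 ± 0.18, adjusted p = 0.0481 in edgeR). Spdef, an ETS factor, was at 4.22 and 2.21 CPM in those 2 libraries, and at 0.211 to 0.491 in the other positive ones, which overlaps the 0.101 to 0.316 of the negative libraries. C130021I20Rik, annotated as an antisense RNA gene, was at 4.44 and 3.16 CPM in them and at 0.245 to 0.598 in the other positive libraries, against 0.155 to 0.372. Tfap2d, Ferd3l, Tal2 and Pax3, which encode transcription factors, also had their 2 highest levels there, but Ferd3l, Tal2 and Pax3 were higher in every positive library than in any negative one. The slopes were 0.94 ± 0.14 for Tfap2d (adjusted p = 0.0103 in edgeR), 0.62 ± 0.08 for Ferd3l (0.00231), 0.72 ± 0.12 for Tal2 (0.0143) and 0.76 ± 0.13 for Pax3 (0.0195). Both libraries are CAIA libraries of different sex. Gata3, Tfap2d and Ferd3l overlap annotated genes on the opposite strand.

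The likeness to Tph1 was also described by Pearson's r of log2(CPM + 0.5) over the 11 libraries, which share depth and tissue. The highest were Rbp3 (0.988), Cplx4 (0.980), Bsx (0.979), Crx (0.977), Pkd2l2 (0.971), Lhx4 (0.960), Tulp1 (0.949), Neurod4 (0.944), Sag (0.941) and Mab21l2 (0.936), and 22 genes had an r of 0.9 or more. Pkd2l2, a polycystin channel gene, differed little in size, at 20.8 to 23.3 CPM in the positive and 17.6 to 19.4 in the negative libraries, and did not pass along the Tph1 level (0.06 ± 0.02, adjusted p = 0.265 in edgeR). The same held for Timm29, a mitochondrial import subunit, with an r of 0.930 and 82.9 to 85.3 against 75.0 to 79.2 CPM.

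Within the 5 positive libraries, the ratio of each gene to Tph1 is given as a description, since Tph1 chose these libraries. Tph1 itself differed 7.09-fold among them, so a gene at one level in all 5 has a spread near that value, as Timm29 had at 7.05. The ratio of Rbp3 to Tph1 ran from 0.837 in female control replicate 3 to 1.46 in female CAIA replicate 1, a spread of 1.75 between the highest and the lowest. The spread was 1.44 for Lhx4, 1.72 for Pde6b, 1.87 for Crx, 1.94 for Sag, 2.02 for Pde6g, 2.25 for Gnb3, 2.63 for Tulp1, 2.81 for Asmt, 2.88 for Neurod4, 2.89 for Pde6c and 3.01 for Cplx4. It was 4.27 for Prph2, 5.21 for Cabp5, 6.05 for Lrit1 and 6.58 for Aipl1. For Bsx it was 3.61, and its ratio was lowest in the library of highest Tph1 (0.0994 in male CAIA replicate 3) and highest in that of lowest Tph1 (0.359 in female CAIA replicate 1). This order was not particular to Bsx. The same libraries held the lowest and highest ratios of Pde6g (0.203 and 0.410), Cplx4 (0.0469 and 0.141), Prph2 (0.0300 and 0.128) and the nearly level Timm29 (4.39 and 31.0). Rbp3, Sag and Crx had their lowest ratio in female control replicate 3. For genes that also had a clear level in the negative libraries, though lower than in the positive ones on average, it was 6.20 for Anxa2, 6.11 for Nts and 10.6 for Ctxn3.

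**Figure D3:**
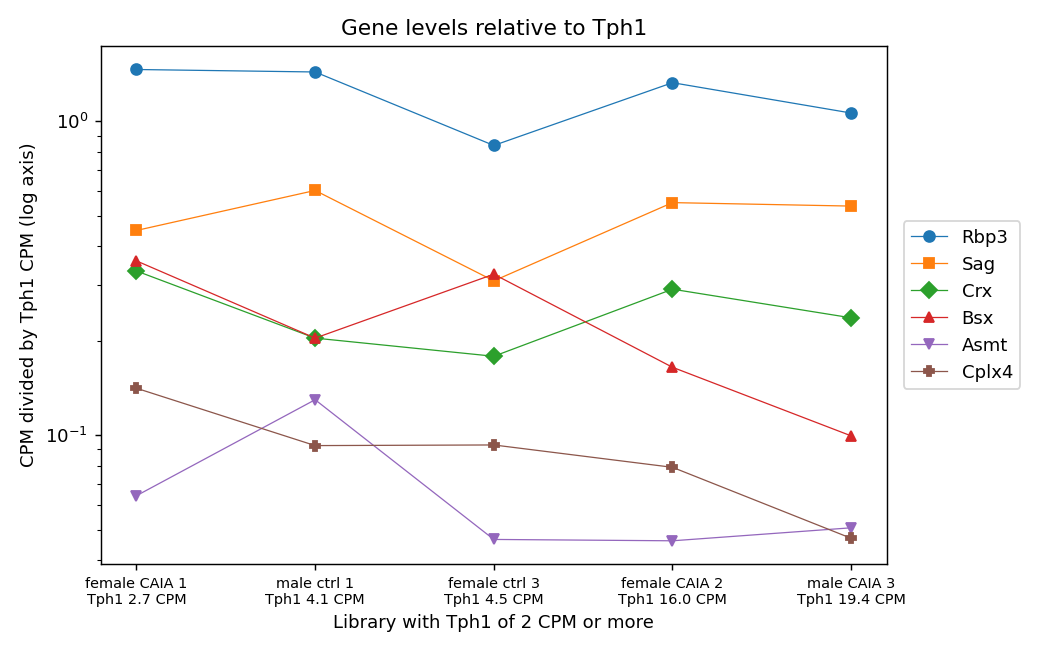
Points give the CPM of 6 genes divided by the CPM of Tph1 (log axis) in the 5 Tph1-positive libraries, ordered by Tph1, and lines join the points of a gene. Rbp3 stays between 0.837 and 1.46, while Bsx ranges from 0.359 in the leftmost library to 0.0994 in the rightmost, and Cplx4 from 0.141 to 0.0469.

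Among the 27 genes of the 35 that had a RefSeq promoter (30 windows), 9 held TAATCC on either strand, beside the 7.06% of all promoters: Aipl1, Cabp5, Crx, Esm1, Fam216b, Lrit1, Rbp3, Sag and Spdef. The shorter TAATC, which every TAATCC contains, was in 13 of the 27 and in 22% of all promoters. CAGATG, an E-box read by NEUROD-type factors, was in 3 and in 17.2%. Both strands were searched, and these counts are a description of genes that were chosen by their values.

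Genes by which the pineal responds to sympathetic input did not separate the libraries. Of 22 tested members of the adrenergic and second messenger list, such as the adrenergic receptor Adrb1 and the cyclic AMP modulator Crem, none passed either test in edgeR, and 0 were higher and 2 lower at an unadjusted p under 0.05 (3.87% and 2.66% of all genes). Their median was -0.10, with 5 of 22 positive. Of 17 secretory and synaptic genes none passed, 0 were higher and 3 lower at that unadjusted p, and the median was -0.04. DESeq2 called none on either list. The lists summed to 1251 to 1875 and 5771 to 6623 CPM over all 11 libraries. Many of these genes are also expressed in brain, and whether RNA of the surrounding brain has a part here was not tested.

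The lists of neighbouring tissues show what else went with Tph1. All 11 tested genes of the subcommissural organ and ependyma were on the positive side, at a median of 0.39 on the log2 scale, and 10 had an unadjusted p under 0.05, beside 3.87% of all genes. None passed in edgeR over all genes, and DESeq2 called Ccdc153 and Pifo, and along the Tph1 level also Sspo, which encodes SCO-spondin, the main secreted protein of the subcommissural organ. Sspo had a mean of 52.6 CPM over the positive and 7.43 over the negative libraries (log2 fold change 2.09 ± 1.013, adjusted p = 0.762 in edgeR). Their summed level was 164 CPM in male control replicate 1, 235 in female control replicate 3, 278 in male CAIA replicate 3, 160.5 in female CAIA replicate 1 and 312 in female CAIA replicate 2, and 118 to 171 in the negative libraries, so the groups overlapped in the lower 2. Ccdc153, a coiled-coil gene of motile cilia, was at 18.2 to 23.4 CPM in the positive and 13.5 to 16.5 in the negative libraries (log2 fold change 0.43 ± 0.08, adjusted p = 0.156 in edgeR). Pifo, a gene of the primary cilium, was at 2.66 to 5.77 against 1.74 to 2.57 CPM (0.76 ± 0.17, adjusted p = 0.243), and Foxj1, the regulator of motile cilia, at 39.8 to 56.5 against 27.9 to 46.2 CPM (0.34 ± 0.10, adjusted p = 0.59). Whether this tissue has a part in the genes that rose with Tph1 was not tested.

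Choroid plexus genes did not follow the split. Their sum ran from 247 to 5938 CPM in the positive and 254 to 4641 in the negative libraries, with 1 of 16 genes positive and a median of -0.38. None passed in edgeR or DESeq2, and none had an unadjusted p under 0.05 in edgeR. Ttr, the secreted transthyretin, was at -0.71 ± 1.16 (adjusted p = 0.943 in edgeR), and its sign was positive without the treatment term. With the mean level of these genes in the model, Bsx still was the 1 gene that passed between the groups, and 31 genes passed along the Tph1 level, 28 of them among the 35.

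**Figure D4:**
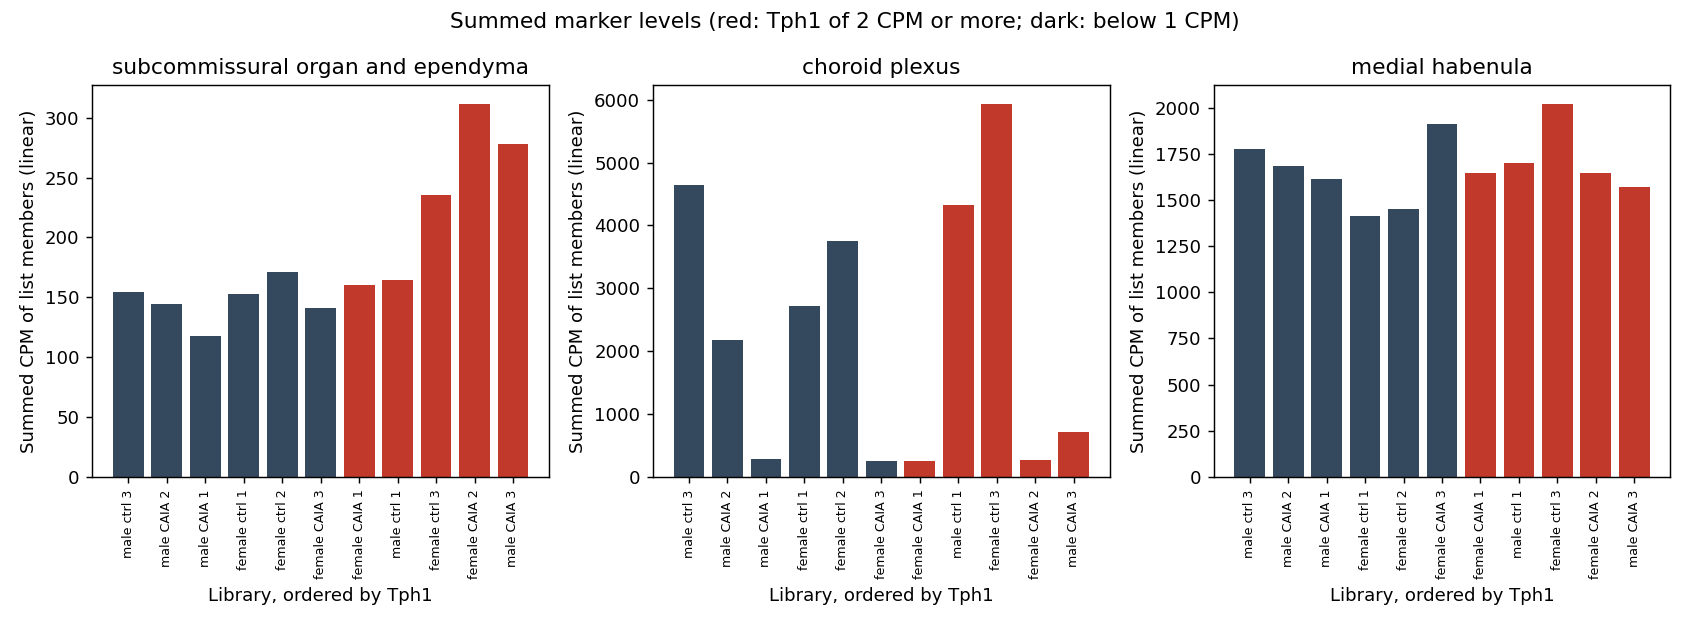
Bars give the summed CPM of 3 gene lists (linear axes starting at 0) in each library, ordered by Tph1, with Tph1-positive libraries in red. The sum for subcommissural organ and ependyma is highest in 3 red bars (235 to 312), that of choroid plexus runs from 247 to 5938 with both colours mixed, and medial habenula stays between 1413 and 2023.

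Blood and myelin genes were also on the positive side. All 6 blood genes had a positive fold change (median 0.68), 4 with an unadjusted p under 0.05 (3.87% of all genes were higher at that p), and none passed in edgeR or DESeq2. Their sum was 169 to 268 CPM in the positive and 148 to 193 in the negative libraries, and was lowest among the positive ones in male CAIA replicate 3, the library of highest Tph1. Hbb-bs, a beta globin, was at 33.1 to 78.4 against 25.2 to 37.2 CPM (0.76 ± 0.21, adjusted p = 0.587 in edgeR), and without the 2 libraries of highest Tph1 it passed at 1.04 ± 0.12 (adjusted p = 0.0116). All 12 myelin genes had a positive fold change (median 0.19), 6 with an unadjusted p under 0.05 beside the same 3.87%. None of the 12 passed in edgeR or DESeq2.

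The thalamus list and the hippocampus and cortex list had medians on the negative side, and no gene of the brain, vascular and meningeal lists in this paragraph passed in edgeR or DESeq2. Of 14 thalamus genes 2 were positive (median -0.17), with 0 higher and 2 lower at an unadjusted p under 0.05 (3.87% and 2.66% of all genes). Of 18 hippocampus and cortex genes 5 were positive (median -0.19), with 0 and 1. Lateral habenula genes had a median of -0.03 and medial habenula genes one of 0.01. Chrm3, a muscarinic receptor on the lateral habenula list, was lower in every positive library (29.7 to 34.9 CPM) than in any negative one (36.8 to 41.8), at -0.27 ± 0.07 (adjusted p = 0.512 in edgeR). Meningeal fibroblast, vascular and microglial genes had medians of -0.04, -0.03 and -0.04, astrocyte genes 0.06, and genes of sympathetic neurons and Schwann cells 0.15.

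**Figure D5:**
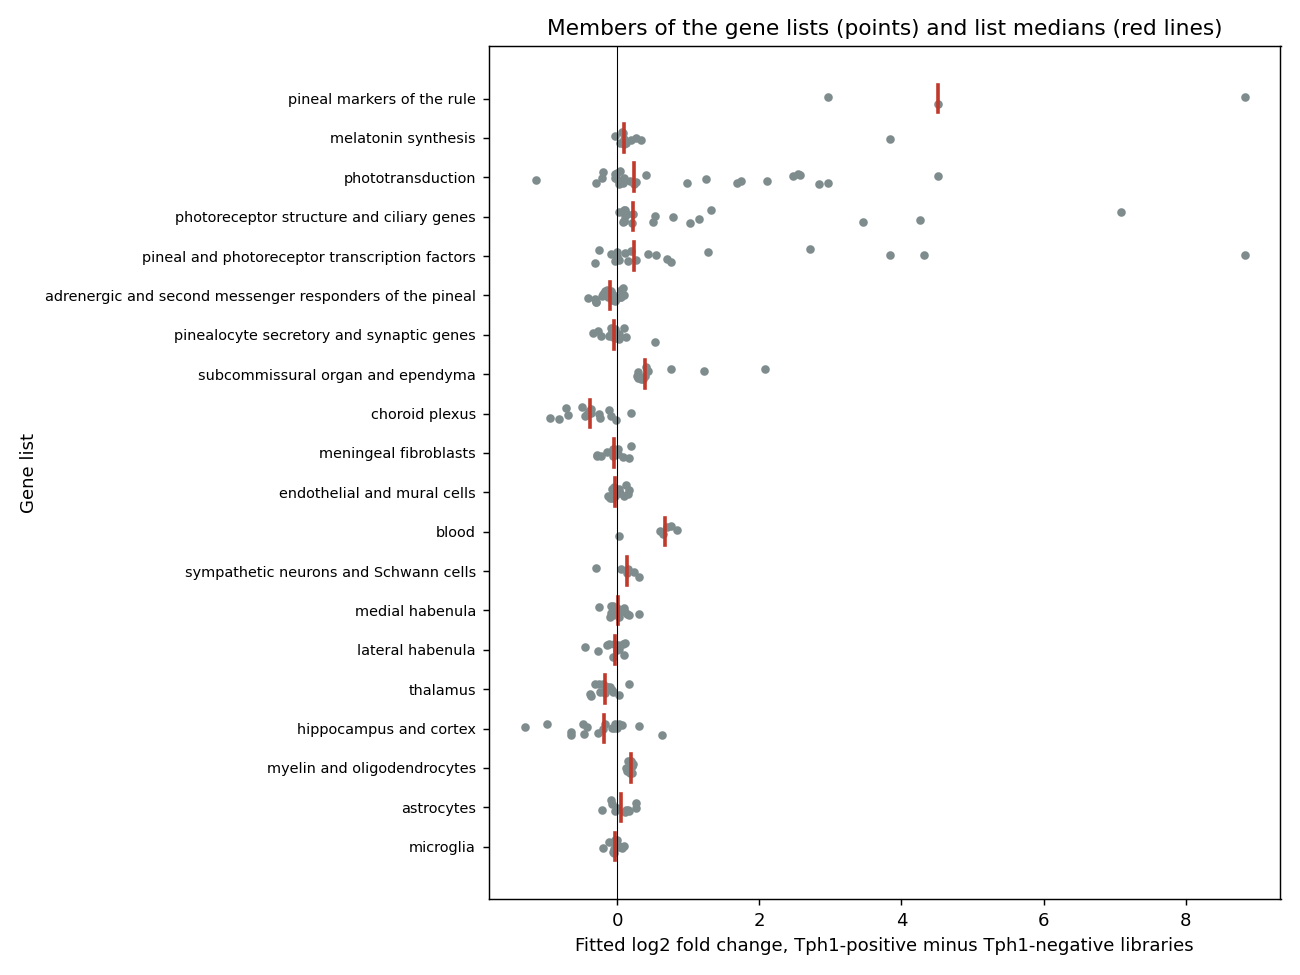
Each point is the fitted log2 fold change of a tested gene between Tph1-positive and Tph1-negative libraries, by gene list, and red lines are list medians. The pineal marker, phototransduction, photoreceptor structure and transcription factor lists each have points far to the right of medians of 4.52, 0.24, 0.23 and 0.23, while the choroid plexus median is at -0.38.

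The question of arthritis against vehicle was then set beside the split. With the split in the model, 98 genes passed between CAIA and control in edgeR, 1 higher (0.0051%) and 97 lower (0.494%), and without it 104 passed, of which 93 were shared. None of the 35 genes that rose with the Tph1 level passed between CAIA and control in the fit with the split, and the smallest adjusted p among them was that of Ferd3l, at 0.548 in edgeR. With female CAIA replicate 1 left out, Crx was the 1 gene of the 35 that passed between CAIA and control. With all libraries, Crx was at 2.03 ± 0.69 (adjusted p = 0.639). Whether the split acted differently by treatment or sex was tested with interaction terms in edgeR. No gene passed for treatment (724 of 19618 at an unadjusted p under 0.05, smallest adjusted p = 0.992) or for sex (2896 of 19618, smallest adjusted p = 0.217). The unadjusted count was thus larger for sex than for treatment. Fitted apart in edgeR, males gave 63 genes between the groups and females 2.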

How the data were processed

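Whole-number read counts per gene were deposited by the authors with no normalization. Per the submitters' processing notes, cutadapt 1.9.1 and HISAT2 2.0.5 were used, the build was GRCm38 and the counter featureCounts 1.5.0-p3. Strand setting and annotation release: not given in the sources used here. Libraries were assigned to treatment and sex by their labels and then split by Tph1 at 2 and 1 CPM of the column sum. No 2 libraries of a group agreed within sampling noise (chi-square over its degrees of freedom 6.59 to 27.7).

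Counts were filtered with filterByExpr by sex and treatment, scaled with TMM and fitted in edgeR 4.0.16 (glmQLFit robust, treatment and split, 8 residual degrees of freedom, R 4.3.3), with Benjamini-Hochberg adjustment over the 19618 genes at 0.05. Standard errors equal the absolute log2 fold change over the root of F. The fit was tested on simulated data, with changes planted only in genes averaging 1 CPM or more. That test does not cover genes below this level. DESeq2 1.42.0, limma 3.58.1 (voom), other filters, covariates and left-out libraries were alternatives. Coordinates are of GENCODE M21, which matched 54409 gene identifiers. Members, gene lists and tests were chosen with earlier results of these data known. Named genes were Rbp3, Sag, Crx, Aanat, Asmt, Ddc, Gch1, Tph2 and Ttr, the 10 of lowest p where fewer than 10 passed, up to 6 per list by p, the 20 most correlated with Tph1, and the 5 of lowest p for treatment, which are not described. Gnat1, Lhx9, Neurod1, Rax, Sspo, Cabp5 and other genes marked as such in the text were chosen after their values were seen. Results for a few genes are not reported here.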

Additional observations from a re-analysis of the deposited data

Results flagged for a closer look

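In a check of 53 genes in both groups of libraries (106 groups), 5 groups held a library that stood apart from the others by Dixon's criterion, where chance gives about 1 in 20. Among the Tph1-positive libraries, Prph2 stood at 1.51 CPM in female CAIA replicate 2, above the others, and Lrrc38 at 0.736 and Pdlim4 at 10.3 CPM in female CAIA replicate 1, below the others. Among the Tph1-negative libraries, Krt15 stood at 0.194 CPM in female control replicate 2, above the others. Lrit1 stood at 0.0395 CPM in male CAIA replicate 2, a single count where the other 5 negative libraries had 0.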

How the results depend on the processing

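The 1 gene called between the groups remained 1 with RLE factors, column sums, a filter of 1 CPM in 2 libraries, limma-voom (Cplx4 in place of Bsx), no treatment term, sex and treatment, or the choroid plexus level. The count was 47 with no count filter, 46 in DESeq2, 35 along the Tph1 level, 8 in CAIA alone, 6 at a threshold of 0.1, 2 with the 4 groups, 2 in females alone, 63 in males alone (24 higher, 39 lower), 0 in controls alone (859 at an unadjusted p under 0.05 in edgeR, no other tool run) and 3 without the 2 libraries of highest Tph1. Leaving out each library gave 1 to 24, with 24 without male control replicate 1, 12 without female CAIA replicate 1 and 4 without female control replicate 1, and Bsx passed in all 11 fits (3.61 to 4.10). In these fits too Bsx passed the count filter through the positive libraries, so its direction was not free. The count along the Tph1 level was 110 in DESeq2, 6 without the 2 libraries of highest Tph1 and 12 to 53 with a library left out. These alternatives to the Tph1-level fit, and leaving out those 2 libraries, were chosen after seeing the data. The count for CAIA was 214 in DESeq2 and 43 to 192 with a library left out, the lowest without female CAIA replicate 3 and the highest with male CAIA replicate 2 left out. With a replicate block the counts were 6 between the groups, 20 along the Tph1 level and 104 for CAIA; same-numbered libraries did not deviate together (3 of 15 pairs over 0.1, r from -0.24 to 0.14), so the numbers were not taken to pair samples.

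Of 52 genes, 48 kept their direction throughout. Ttr turned to 0.058 without the treatment term, 0.023 with the 4 groups, 0.166 with the replicate block, 0.052 with the choroid plexus level, 0.562 in controls alone and 0.448 in females alone, and ran from -1.25 to 0.942 with a library left out (the highest without male CAIA replicate 2). Gch1 turned to -0.156 in controls alone, -0.067 in females alone and -0.265 without the 2 libraries of highest Tph1. Aanat turned to -0.219 in CAIA alone and ran from -0.049 to 0.197 with a library left out, and Tph2 from -0.090 to 0.608. The cause was not tested. Genes below about 1 CPM rest on few counts, which limits their precision.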

Other observations

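mt-Nd4l, a mitochondrial subunit of complex I whose gene overlaps mt-Nd4, had a large negative difference and was chosen after its values were seen. It was at 6.72 CPM in male control replicate 1, 3.63 in female control replicate 3, 4.73 in male CAIA replicate 3, 8.97 in female CAIA replicate 1 and 4.92 in female CAIA replicate 2, against 6.68 to 41.6 (median 23.3) in the Tph1-negative libraries. The groups overlapped, and the log2 fold change was -1.97 ± 0.42 (adjusted p = 0.438 in edgeR). Togaram2, a ciliary gene, was at 11.4 to 13.99 CPM in the positive and 8.65 to 9.64 in the negative libraries (0.41 ± 0.08, adjusted p = 0.178), and Dlk1, a secreted Notch-family ligand, at 15.7 to 28.6 against 10.98 to 14.9 CPM (0.62 ± 0.12, adjusted p = 0.172). Ncan, a proteoglycan of the brain matrix, was lower in every positive library (101 to 116 CPM) than in any negative one (118 to 141), at -0.27 ± 0.07 (adjusted p = 0.468). With all 11 libraries and the count filter, these genes did not pass in edgeR between the groups. DESeq2 called mt-Nd4l, Dlk1 and Togaram2, and in edgeR mt-Nd4l passed with a replicate block and Dlk1 with no count filter or without male control replicate 1. Togaram2, Dlk1 and Ncan were likewise chosen after their values were seen.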
